A study of Homo sapiens with 15 samples.

Results

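The genes described here are 8 genes that make or load MHC class I molecules (HLA-B, HLA-C, HLA-E, B2M, TAP1, TAP2, PSMB8 and PSMB9) and CD274, which encodes PD-L1. They were taken from a deposited table of 60675 genes by symbol, and each of the 9 symbols had a single row. CD274 was selected on its expression values in an earlier look at these libraries, and the other genes were listed with those results known. Levels and differences of CD274 are therefore given without a test, and counts over the members are a description only. The intervals printed for CD274 describe its estimates and are not used as a test. HLA-C had 0 to 7 counts per library and did not pass the low-count filter, so 8 of the 9 members were tested.

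The data are RNA-seq of HT1080 cells, an established human fibrosarcoma line, in 15 libraries, made from 5 groups of 3 biological replicates each. The study asked whether inhibitors sold as selective for KDAC6 or KDAC8 (also called HDAC6 and HDAC8) act as genetic inactivation of the enzyme does. 6CD1m cells carry KDAC6 H216A, which inactivates the first catalytic domain, and 6CD2m cells carry KDAC6 H611A, which inactivates the second; both lines received 1 μM Tubastatin A, a KDAC6 inhibitor, for 2 days. 8CDm cells carry KDAC8 H143A and received 5 μM PCI-34051, a KDAC8 inhibitor, for 2 days. Both remaining groups were WT cells kept for 14 days in 1 μM Tubastatin A or in 5 μM PCI-34051. The mutations were introduced into the endogenous genes with CRISPR/Cas9. Every group was treated, and no untreated cells, and no WT cells after the shorter exposure, are analysed here. Between a mutant line and WT cells on the same inhibitor, line and duration changed together and cannot be told apart, and 6CD1m and 6CD2m cells were compared with the same WT libraries.

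Total counts on genes ran from 10932455 to 19983710 per library (median 17551887) and were lowest in 6CD1m cells. Replicate 1 of 6CD1m cells and of both WT groups stood apart from the other libraries of its group. Its chi-square per gene to them was 15.5 to 43.1, against 4.58 to 6.79 between those 2 libraries. The labelled cell type was checked on markers. The 8 mesenchymal genes summed to 4540 to 8860 CPM (counts scaled to a common library size) in every library, lowest in 6CD2m cells (4540 to 5170 CPM). The 8 leucocyte genes summed to 112 to 279 CPM, again lowest in 6CD2m cells (112 to 118 CPM) and highest in WT cells on Tubastatin A (223 to 279 CPM), and 3 of the 8 had at most 3 counts in every library. The 5 epithelial genes summed to 369 to 525 CPM, highest in 6CD2m cells (493 to 525 CPM). The part of these lists in the results was not tested. In bulk RNA, fewer cells expressing a gene and less RNA per cell cannot be told apart.

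MHC class I molecules show fragments of a cell's own proteins to CD8+ T cells. The immunoproteasome cuts the proteins, the TAP transporter carries the peptides into the endoplasmic reticulum, and loading factors fit them to a heavy chain paired with β2-microglobulin. Most of these genes are known to respond to interferon through STAT and IRF factors, and NLRC5 is known as their transactivator. PD-L1 is also induced by interferon-γ in many cells, and binds PD-1 on T cells to restrain them.

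All members but B2M and CD274 lie in the MHC on chromosome 6. By GENCODE 29 on GRCh38 these are HLA-B (chr6:31269491-31357188, minus strand), HLA-C (chr6:31268749-31272130, minus), HLA-E (chr6:30489467-30494205, plus), TAP2 (chr6:32821833-32838780, minus), PSMB8 (chr6:32840717-32844703, minus), TAP1 (chr6:32845209-32853978, minus) and PSMB9 (chr6:32844136-32859585, plus). B2M is at chr15:44711487-44718877 and CD274 at chr9:5450503-5470566, both on the plus strand. The annotated spans of TAP1 and PSMB9 share 8770 bases on opposite strands, and those of HLA-B and HLA-C share 2640 bases on the same strand. The strand setting of the counting is not given in the sources used here, and the TAP1 counts were not whole numbers in any of the 15 libraries, so values of these neighbours, and of the near-identical HLA genes, are uncertain to that extent. The HLA-C level is for this reason not read as absence of its transcript.

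Promoter stretches are shown because interferon-response motifs are what several of these genes have in common outside the rule that chose them. They come from RefSeq windows on GRCh38.p14, which reach from 250 bases before to 50 bases after a transcription start and were found for every member except HLA-E. Capitals mark the interferon-stimulated response element (ISRE, searched as GAAANNGAAA) in each stretch. In the CD274 stretch the later capitals TTCACCGAA mark a γ-activated site (GAS, searched as TTCNNNGAA), and in the B2M stretch GGAAAGTCCC marks an NF-κB site (searched as GGGANTTTCC) on the other strand. Each stretch is written 5′ to 3′ on the strand of its gene.
CD274, chr9:5450324-5450435, plus strand: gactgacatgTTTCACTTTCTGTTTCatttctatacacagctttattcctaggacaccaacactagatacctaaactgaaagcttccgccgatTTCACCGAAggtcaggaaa
B2M, chr15:44711363-44711411, plus strand: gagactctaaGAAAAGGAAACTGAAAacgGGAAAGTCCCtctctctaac
TAP1, chr6:32853816-32853845, minus strand: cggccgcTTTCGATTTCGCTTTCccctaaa
TAP2, chr6:32838778-32838807, minus strand: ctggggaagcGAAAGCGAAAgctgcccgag
Both strands were searched, and the paired ISRE matches in CD274, B2M and TAP1 overlap each other. An ISRE match was present in 5 of the 10 member windows (TAP1, TAP2, PSMB8, B2M and CD274) and in 3.57% of all 35116 windows of this length. A GAS match was present in 3 member windows (TAP1, PSMB8 and CD274) and in 7.66% of all windows, and the NF-κB site in 2 (TAP1 and B2M) and in 0.558% of all. The CCAAT box was in 5 member windows (HLA-B, HLA-C, TAP1, PSMB9 and B2M) and in 34.6% of all. A match describes these letters in this window and is not a measurement of binding.

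CD274 was highest in 6CD2m cells. It stood at 126, 146 and 139 CPM in the 3 libraries of 6CD2m cells (mean 137 ± 10.3, SD, n = 3). In 8CDm cells the libraries were at 56.0, 54.9 and 55.8 CPM (55.6 ± 0.609), and in WT cells on PCI-34051 at 12.8, 11.6 and 13.5 CPM (12.6 ± 0.927). WT cells on Tubastatin A had 35.7, 30.7 and 25.7 CPM (30.7 ± 5.00), and 6CD1m cells 21.4, 25.7 and 27.7 CPM (24.9 ± 3.22). Each 6CD2m library was thus above every other library, each 8CDm library was above all WT and 6CD1m libraries, and the libraries of WT cells on PCI-34051 were below all others. Only 6CD1m cells and WT cells on Tubastatin A overlapped.

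In differences, CD274 in 6CD2m cells exceeded that in WT cells on Tubastatin A by 4.46-fold (log2 fold change 2.16, SE 0.12, 95% confidence interval 1.89 to 2.42). It was 4.40-fold higher in 8CDm cells than in WT cells on PCI-34051 (log2 fold change 2.14, SE 0.13, interval 1.86 to 2.41). The difference between these log2 fold changes was 0.02 (interval −0.36 to 0.40). The size of the difference from WT cells was thus close in both lines, while the levels it connects were not. Between the KDAC6 lines, CD274 was 5.49-fold lower in 6CD1m than in 6CD2m cells (log2 fold change −2.46, interval −2.73 to −2.19), and 6CD1m cells differed from WT cells on Tubastatin A by −0.30 (interval −0.56 to −0.04) on the log2 scale. CD274 was 2.47-fold higher in 6CD2m than in 8CDm cells, and 2.43-fold higher in WT cells on Tubastatin A than on PCI-34051. CD274 was among the members with the lower GC content (40.9%), and with GC offsets its log2 fold changes in the mutant lines against WT cells were 2.06 and 1.92.

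**Figure D1:**
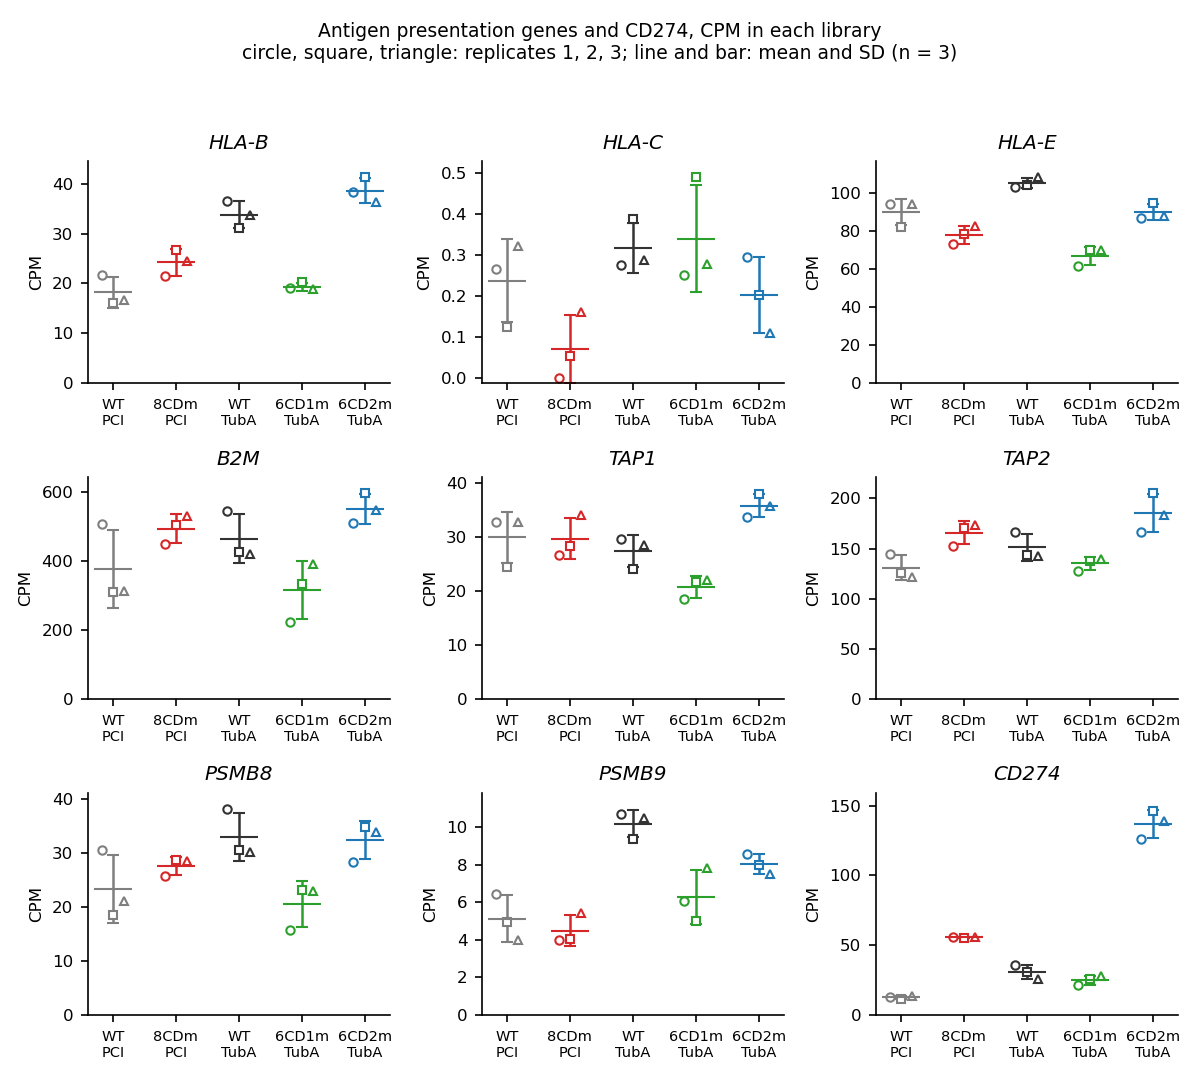
CPM of each of the 9 genes (y axis, linear, from 0) in each of the 15 libraries, by group (x axis; PCI, PCI-34051; TubA, Tubastatin A); circles, squares and triangles are replicates 1, 2 and 3, and lines with bars are the mean and SD of 3 libraries. CD274 in 6CD2m cells lies at 126 to 146 CPM, above every other library, while most class I genes spread over a narrower range. For HLA-B, B2M, TAP2 and PSMB8 the means of 6CD1m cells and WT cells on PCI-34051 are the lowest, and the other class I genes have other orders.

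Among the heavy chains, HLA-B, a classical class I chain, divided the groups into an upper and a lower set. Its libraries had 38.4, 41.3 and 36.3 CPM in 6CD2m cells (38.6 ± 2.52) and 36.6, 31.2 and 33.7 CPM in WT cells on Tubastatin A (33.8 ± 2.71). They had 21.4, 26.8 and 24.6 CPM in 8CDm cells (24.3 ± 2.75), 19.0, 20.3 and 18.8 CPM in 6CD1m cells (19.4 ± 0.792) and 21.8, 16.1 and 16.7 CPM in WT cells on PCI-34051 (18.2 ± 3.09). The 2 groups at the top overlapped each other but no other group, and 6CD1m cells overlapped WT cells on PCI-34051. HLA-E, the non-classical chain that displays leader peptides to the NK cell receptor NKG2A, had another order. It was at 103, 104 and 108 CPM in WT cells on Tubastatin A (105 ± 2.69) and at 61.5, 69.7 and 69.7 CPM in 6CD1m cells (67.0 ± 4.71), with 6CD2m cells (89.8 ± 4.13 CPM), WT cells on PCI-34051 (89.9 ± 6.94 CPM) and 8CDm cells (77.8 ± 4.66 CPM) between them. Of the neighbours in this order only 6CD2m cells and WT cells on PCI-34051 overlapped.

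B2M, the light chain shared by all class I molecules, varied widely within 3 of the groups. Its libraries were at 224, 333 and 391 CPM in 6CD1m cells, at 507, 309 and 313 CPM in WT cells on PCI-34051 and at 546, 425 and 421 CPM in WT cells on Tubastatin A. They were at 510, 596 and 548 CPM in 6CD2m cells and at 448, 505 and 530 CPM in 8CDm cells. The replicate 1 library, which stood apart over all genes, was the lowest of 6CD1m cells and the highest of both WT groups, and every group overlapped its neighbour in the order of means. PSMB8, a catalytic subunit that replaces PSMB5 in the immunoproteasome, had the same feature. Replicate 1 was at 15.7 CPM in 6CD1m cells against 23.1 and 22.9 CPM in the others, at 30.5 CPM in WT cells on PCI-34051 against 18.5 and 21.2 CPM, and at 38.1 CPM in WT cells on Tubastatin A against 30.5 and 30.3 CPM.

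The transporter subunits were highest in 6CD2m cells. TAP1 had 33.7, 38.0 and 35.8 CPM there (35.9 ± 2.18) and 18.5, 21.7 and 22.1 CPM in 6CD1m cells (20.8 ± 1.96), and the remaining groups overlapped one another. Of their libraries, 1 of 8CDm cells exceeded the lowest 6CD2m library and the others lay at 24.0 to 32.7 CPM, above all 6CD1m libraries. TAP2 had 167, 205 and 184 CPM in 6CD2m cells (185 ± 19.3), 153, 171 and 174 CPM in 8CDm cells (166 ± 11.2) and a mean of 151 ± 13.8 CPM in WT cells on Tubastatin A, which overlapped in this order. 6CD1m cells (135 ± 6.16 CPM) and WT cells on PCI-34051 (131 ± 12.1 CPM) formed the lower end. PSMB9, which replaces PSMB6 in the immunoproteasome, was highest in WT cells on Tubastatin A, at 10.7, 9.34 and 10.5 CPM (10.2 ± 0.736), with no overlap with 6CD2m cells at 8.58, 8.00 and 7.51 CPM (8.03 ± 0.538). The other groups had means of 4.49 to 6.28 CPM and overlapped, on 62 to 121 counts per library.

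**Figure D2:**
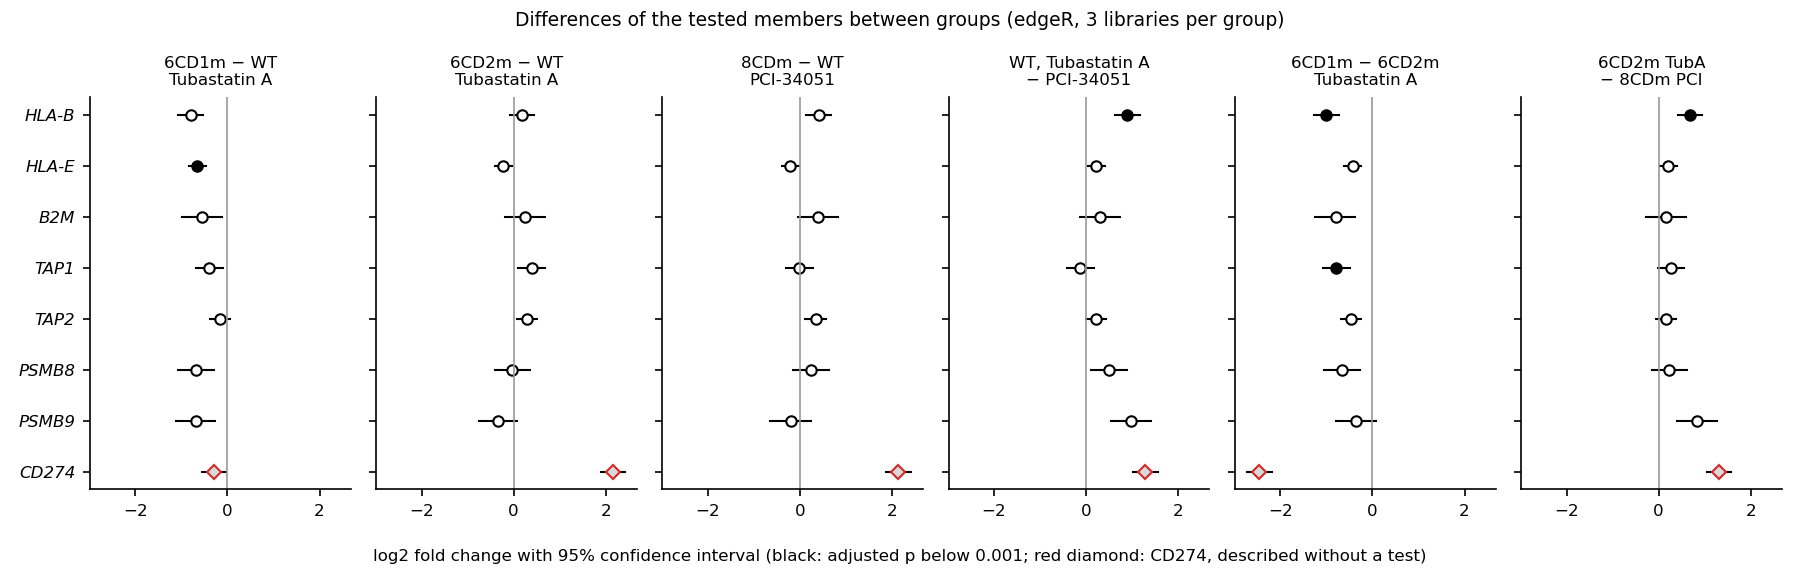
Log2 fold changes of the 8 tested members in 6 comparisons (x axis, same scale in all panels; points, edgeR estimates; bars, 95% confidence intervals; 3 libraries per group). Filled black points had an adjusted p below 0.001, and the red diamonds are CD274, given without a test; CD274 lies at 2.16 and 2.14 in the comparisons of 6CD2m and 8CDm cells with WT cells, where the class I genes lie between −0.34 and 0.41.

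The comparison of 6CD2m and WT cells on Tubastatin A sets cells that lack the active second domain of KDAC6 against cells that have it, both on the KDAC6 inhibitor. The exposure was 2 days in 6CD2m cells and 14 days in WT cells, so line and duration changed together. Of the 7 tested class I genes, 0 passed the threshold (edgeR quasi-likelihood test with Benjamini-Hochberg adjustment over 19535 genes, false discovery rate 0.001), where 11.8% of all genes did. An unadjusted p under 0.05 was found for 3 of the 7, and DESeq2 called 0. Over all 19535 genes, 2878 were higher and 3533 lower even at an adjusted p under 0.05 (edgeR), so such unadjusted values were common. TAP1 came nearest among the genes with a higher mean (log2 fold change 0.39, SE 0.13, adjusted p = 0.037) and its libraries did not overlap. TAP2 was at 0.29 (adjusted p = 0.039), HLA-B at 0.19 (0.26), B2M at 0.25 (0.38) and PSMB8 at −0.03 (0.93), while HLA-E was at −0.23 (0.059) and PSMB9 at −0.34 (0.20). Over the 7 the median log2 fold change was 0.19, against −0.01 over all genes.

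Between 8CDm and WT cells on PCI-34051, 0 of the 7 tested class I genes were called with edgeR, where 11.0% of all genes were. Here too line and duration changed together, with 2 days in 8CDm cells and 14 days in WT cells. An unadjusted p under 0.05 was again found for 3, and DESeq2 called 0. Here 3447 of all 19535 genes were higher and 3610 lower at an adjusted p under 0.05 (edgeR), so such unadjusted values were common. TAP2 had a log2 fold change of 0.34 (SE 0.10, adjusted p = 0.017) with no overlap of libraries, and HLA-B one of 0.41 (SE 0.13, adjusted p = 0.019) with overlap. B2M was at 0.39 (adjusted p = 0.14), PSMB8 at 0.24 (0.32), TAP1 at −0.01 (0.96), PSMB9 at −0.19 (0.49) and HLA-E at −0.21 (0.074), and the median over the 7 was 0.24 against −0.04 over all genes. Leaving out any single library kept the count at 0. Without all 3 of the replicate 1 libraries that stood apart, HLA-B was at 0.56 (adjusted p = 0.00023), B2M at 0.67 (2.4e-06), TAP2 at 0.42 (0.00022) and PSMB8 at 0.48 (0.00083), and these 4 genes passed. Calls over all genes also rose in that fit, to 3442 higher and 2686 lower of 19878 tested, so the 11.0% does not apply to it.

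An interaction term compared the difference of 6CD2m from WT cells with that of 8CDm from WT cells, each on its own inhibitor. No mutant line was analysed here on both inhibitors, so line and inhibitor changed together and cannot be told apart. Of the 7 tested class I genes, 0 were called with edgeR, 0 had an unadjusted p under 0.05, and DESeq2 called 0, where 5.16% of all genes were called. The intervals limit the difference for HLA-B to −0.60 to 0.15 around −0.22 and for TAP1 to −0.01 to 0.81 around 0.40 on the log2 scale (adjusted p = 0.41 and 0.16). They do not show that the genes moved alike.

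On Tubastatin A, HLA-B and TAP1 were lower in 6CD1m than in 6CD2m cells, a comparison in which dose and duration were the same and the mutated domain of KDAC6 differed. Each mutation was in a cell line of its own, so domain and line changed together and cannot be told apart. HLA-B was 1.99-fold lower (SE 0.13 and interval −1.26 to −0.73 on the log2 scale, adjusted p = 2.4e-05). TAP1 was 1.72-fold lower (log2 fold change −0.79, SE 0.14, interval −1.08 to −0.49, adjusted p = 0.00041). These were 2 of the 7 tested class I genes, where 13.2% of all genes were called in either direction. The other 5 did not pass with edgeR. HLA-E was at −0.42 (adjusted p = 0.0015), TAP2 at −0.46 (0.0027), B2M at −0.80 (0.0059), PSMB8 at −0.65 (0.011) and PSMB9 at −0.35 (0.18). DESeq2 called 5 of the 7, with HLA-E (adjusted p = 7.3e-06), TAP2 (8.7e-05) and B2M (0.00046) besides HLA-B and TAP1. Over all genes it called 1956 higher and 2315 lower of 19534. All 7 estimates were below 0 with a median of −0.65, against 0.05 over all genes, and stayed below 0 with upper-quartile scaling and with GC offsets, but with GC offsets TAP1 no longer passed (adjusted p = 0.0020). HLA-B passed when any single library was left out. TAP1 passed only without 6CD1m replicate 3, its adjusted p running from 0.00068 to 0.0030 over these 6 fits.

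6CD1m cells were also below WT cells on Tubastatin A in the estimates of all 7 tested class I genes, with a median of −0.65 against −0.01 over all genes. Over the 13958 protein-coding genes the median was −0.12. The lean was not particular to the class I genes. Of the 84 other pathway genes tested, described below, 63 were below 0 and 21 above (median −0.29), and all 9 of the proteasome list were below 0 (median −0.39). HLA-E was the 1 gene of the 7 called, 1.57-fold lower (log2 fold change −0.65, SE 0.09, interval −0.83 to −0.46, adjusted p = 0.00039), where 0.793% of all genes were called. HLA-B was 1.75-fold lower but missed the threshold with edgeR (log2 fold change −0.80, SE 0.13, adjusted p = 0.0014). DESeq2 called both HLA-E (adjusted p = 4.8e-10) and HLA-B (7.2e-07), where it called 205 genes higher and 411 lower of 18019. Without the 3 libraries that stood apart both also passed with edgeR (0.00013 and 0.00047), with 80 genes higher and 187 lower of 19878. PSMB8 was at −0.68 (adjusted p = 0.034), PSMB9 at −0.69 (0.044), TAP1 at −0.40 (0.075), B2M at −0.56 (0.086) and TAP2 at −0.16 (0.27). The HLA-E call ended whichever of the 6 libraries was left out (adjusted p = 0.0011 to 0.0029, edgeR), and also with the replicate number as a block (0.0019) or with GC offsets (0.0018). Since the WT libraries are also those set against 6CD2m cells, both sets of values share their errors.

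WT cells on either inhibitor differed in HLA-B, which was 1.86-fold higher on Tubastatin A than on PCI-34051 (log2 fold change 0.89, SE 0.13, interval 0.62 to 1.16, adjusted p = 0.0009). It was the 1 class I gene of 7 called, where 0.420% of all genes were. PSMB9 was 1.98-fold higher with no overlap but did not pass with edgeR (log2 fold change 0.98, SE 0.20, adjusted p = 0.0084). DESeq2 called both HLA-B (adjusted p = 1.1e-08) and PSMB9 (0.00014), where it called 472 genes higher and 233 lower of 17261. PSMB8 was at 0.49 (adjusted p = 0.09), B2M at 0.30 (0.32), HLA-E at 0.22 (0.11), TAP2 at 0.21 (0.19) and TAP1 at −0.13 (0.53). Same-numbered libraries of the WT groups deviated together, but replicate 1 stood apart in both, so pairing was not established. With a replicate block, fitted over all 15 libraries, HLA-B no longer passed (adjusted p = 0.0040). When single libraries were left out it passed only without replicate 1 of WT cells on PCI-34051 (adjusted p = 0.00019 to 0.0097 over the 6 fits, edgeR).

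Between 6CD2m cells on Tubastatin A and 8CDm cells on PCI-34051, line and inhibitor changed together. HLA-B was 1.59-fold higher in 6CD2m cells (log2 fold change 0.67, SE 0.12, interval 0.41 to 0.93, adjusted p = 0.00075) and was the 1 class I gene of 7 called, where 9.96% of all genes were. PSMB9 was 1.79-fold higher with no overlap (log2 fold change 0.84, SE 0.20, adjusted p = 0.0058), and the other class I genes were between 0.16 and 0.27. DESeq2 called both HLA-B (adjusted p = 1.6e-06) and PSMB9 (0.00039), where it called 1710 genes higher and 1393 lower of 19534. The HLA-B call ended without any one of the 6 libraries (adjusted p = 0.0017 to 0.0068), with the replicate number as a block (0.0025) and with GC offsets (log2 fold change 0.52, adjusted p = 0.061).

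The other genes of the pathway were taken from 9 lists, of which 84 genes were tested. In 6CD2m against WT cells on Tubastatin A, 7 of the 84 were called higher and 3 lower, which is 11.9% of the lists against 11.8% of all genes. MR1, a class I-like chain that presents vitamin B metabolites, was at 14.4, 17.6 and 15.5 CPM in 6CD2m cells and at 3.43, 5.25 and 3.58 CPM in WT cells, with no overlap (log2 fold change 1.96, SE 0.26, adjusted p = 3.4e-05). IFITM1, an antiviral membrane protein induced by interferon, was at 18.5, 20.2 and 17.7 CPM against 5.25, 4.34 and 5.95 CPM (log2 fold change 1.86, SE 0.22, adjusted p = 1.1e-05). CIITA, the transactivator of MHC class II, was lower at 4.85, 4.86 and 4.39 CPM against 10.8, 16.9 and 16.4 CPM (log2 fold change −1.64, SE 0.23, adjusted p = 5e-05). These 3 genes passed whichever single library was left out.

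The remaining calls in this comparison were IRF1, a transcription factor that acts on class I promoters (0.73), PVR, a ligand of TIGIT (0.55), and the interferon-stimulated IFIT2 (1.44), MX1 (0.91) and IFITM3 (0.84), all higher, and IRF9, a DNA-binding factor of the interferon response (−0.80), and HLA-DRA, lower. The values are log2 fold changes. When single libraries were left out, the IRF1 call ended without 6CD2m replicate 1, the IRF9 call without 6CD2m replicate 3 or WT replicate 2 or 3, and the PVR call without 6CD2m or WT replicate 2 or 3. IFIT2 passed only without WT replicate 1, and the MX1 call ended without any one of the libraries. HLA-DRA, a class II chain, had 2 to 3 counts in 6CD2m libraries and 0 in 6CD1m libraries, against a mean of 1.21 CPM in WT cells on Tubastatin A. With a floor of 3 counts per library it was at least 5.40-fold lower in 6CD1m cells. In 6CD2m cells its summed counts gave a ratio of 0.105 to WT cells (exact 95% counting interval 0.0406 to 0.23, for counting error only), and both calls ended without any one of the libraries. Of the interferon-stimulated list, 4 of 14 tested genes were called higher and 0 lower, and the list's median was 0.36.

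In 8CDm against WT cells on PCI-34051, 1 of the 84 genes was called higher and 6 lower, or 8.33% against 11.0% of all genes. NLRC5 was at 28.6, 28.4 and 27.5 CPM in 8CDm cells and at 43.6, 68.5 and 67.9 CPM in WT cells (log2 fold change −1.09, SE 0.19, adjusted p = 0.00055), with the WT replicate 1 library nearest to the 8CDm libraries. It passed without that library and not without any other of the 6. The NKG2D ligands ULBP3 (log2 fold change −2.04, SE 0.26, adjusted p = 3.4e-05) and RAET1E (−1.71, SE 0.21, adjusted p = 1.8e-05) were lower, at 1.59 ± 0.408 against 6.55 ± 1.40 CPM and at 1.66 ± 0.202 against 5.46 ± 0.405 CPM, and passed whichever library was left out. The interferon-stimulated IFI6 was lower as well (−2.10). CREB1, which binds class I promoters, was higher (0.82), and the proteasome activator subunit PSME2 (−0.51) and STAT2 (−0.44) were lower; with single libraries left out, CREB1 and STAT2 passed only without WT replicate 1 and PSME2 in none of the fits.

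ULBP3 and RAET1E lie on the long arm of chromosome 6, away from the MHC. The 315 protein-coding genes beyond 60 Mb on chromosome 6 had a median log2 fold change of −0.61 between 8CDm and WT cells on PCI-34051, with 6 called higher and 96 lower, against −0.00 over all 13958 protein-coding genes. Between 6CD2m and 8CDm cells their median was 0.99, with 150 called higher and 4 lower. The 127 protein-coding genes of the MHC region from 28 to 34 Mb, without the members, had medians of −0.20 and 0.02 in these comparisons and of −0.11 to 0.15 in the other 4 comparisons. The part of chromosome position in the values of any gene was not tested.

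**Figure D3:**
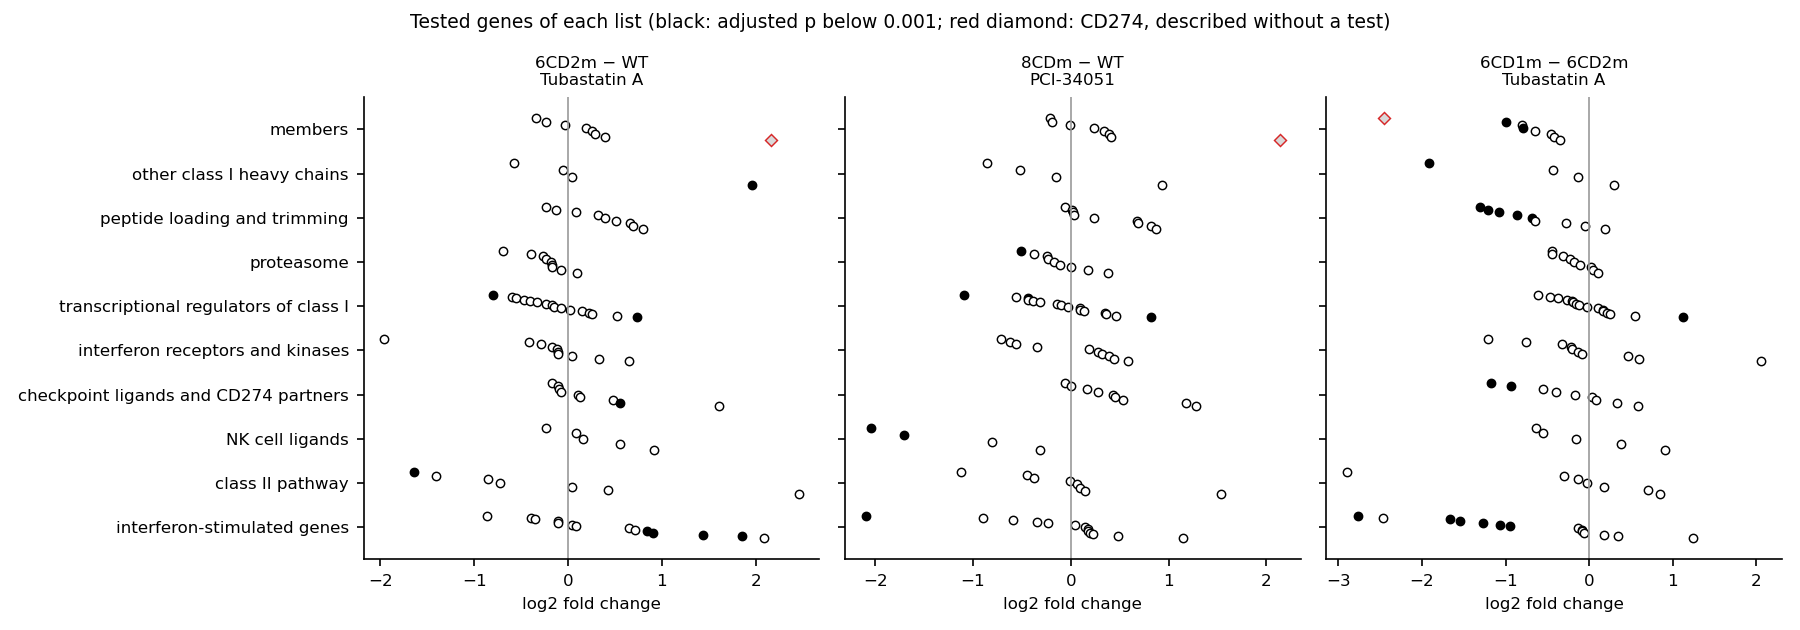
Log2 fold changes (x axis, a scale for each panel) of the tested members and of the tested genes of 9 pathway lists (rows) in 3 comparisons; each point is a gene, filled black where the adjusted p was below 0.001, with CD274 as a red diamond. Genes with at most 3 counts in every library of a compared group are left out (HLA-DRA, BST2 and RAET1G where this held). The filled points right of 0 in 6CD2m against WT cells are MR1, IRF1, PVR and 4 interferon-stimulated genes, and 14 of the 15 filled points of the pathway lists in the 6CD1m against 6CD2m comparison lie left of 0.

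Between 6CD1m and 6CD2m cells, 1 of the 84 genes was called higher and 14 lower, or 17.9% against 13.2% of all genes. The peptide loading and trimming list had 5 of its 9 tested genes called lower, with a median of −0.68. TAPBP (tapasin), which bridges the transporter and the class I heavy chain, was at 130, 132 and 125 CPM in 6CD1m cells and at 195, 217 and 209 CPM in 6CD2m cells (log2 fold change −0.68, SE 0.09, adjusted p = 4e-05). ERAP1, which trims peptides in the endoplasmic reticulum, was at 27.0, 40.7 and 49.3 CPM against 91.1, 100 and 97.8 CPM (−1.30, SE 0.19, adjusted p = 7.5e-05), and its relative ERAP2 was lower as well (−1.21, SE 0.20, adjusted p = 0.00024). The chaperones CANX (−1.08) and HSPA5 (−0.86) were the others. TAPBP and ERAP1 passed without any single library, while CANX and HSPA5 passed only without 6CD1m replicate 3, and ERAP2 only without 6CD1m replicate 3 or 6CD2m replicate 1.

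Of the interferon-stimulated list, 6 of 14 tested genes were called lower in 6CD1m than in 6CD2m cells and 0 higher, with a list median of −0.54. IFITM1 was at 2.27, 2.18 and 3.83 CPM against 18.5, 20.2 and 17.7 CPM (log2 fold change −2.76, SE 0.23, adjusted p = 5.2e-07), and IFIT2 at 1.77, 3.16 and 3.49 CPM against 9.12, 9.07 and 8.84 CPM (−1.67, SE 0.27, adjusted p = 0.00019). MX1 (−1.54), GBP1 (−1.27), IFIT3 (−1.07) and IFITM3 (−0.95) were the others. IFIT2 did not pass without 6CD2m replicate 2 or 3, nor IFIT3 without replicate 1 or 2 of 6CD1m or 2 or 3 of 6CD2m cells. MR1 (−1.91) and PVR (−0.94) were lower too. NLRC5 was the 1 gene called higher, at 75.9, 55.1 and 46.7 CPM in 6CD1m cells against 28.7, 27.5 and 25.5 CPM (log2 fold change 1.12, SE 0.19, adjusted p = 0.0004), opposite in sign to the class I genes, and it passed only without 6CD1m replicate 3 when single libraries were left out.

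In 6CD1m against WT cells HLA-DRA was the 1 gene of the 84 called, or 1.19% against 0.793% of all genes. Between WT cells on either inhibitor edgeR called 0, with 23 at an unadjusted p under 0.05, and DESeq2 called 3. Over all 19535 genes, 1151 were higher and 700 lower at an adjusted p under 0.05 (edgeR), and the share at an unadjusted p under 0.05 was not counted. Between 6CD2m and 8CDm cells 9 were called, all higher in 6CD2m cells, or 10.7% against 9.96% of all genes. RAET1E (2.44, SE 0.20, adjusted p = 3.2e-07), ULBP3 (1.90, SE 0.26, adjusted p = 5.8e-05) and MX1 (2.23, SE 0.19, adjusted p = 3.8e-07) had the largest log2 fold changes of those that the naming rule allowed.

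Several other genes of the pathway were not called in any of the 6 comparisons with edgeR on all 15 libraries. JAK2, a kinase of the interferon-γ receptor, had means of 17.3 to 23.5 CPM, and CMTM6, which keeps PD-L1 at the cell surface, had means of 87.0 to 134 CPM. The third immunoproteasome subunit PSMB10 had means of 10.8 to 14.1 CPM. The constitutive subunits PSMB5, PSMB6 and PSMB7 had means of 80.6 to 130, 38.5 to 50.5 and 126 to 176 CPM. Of these 6 genes DESeq2 called PSMB5, in 6CD2m against WT cells (log2 fold change −0.69, adjusted p = 0.002 with edgeR and 0.00021 with DESeq2). Without the 3 libraries that stood apart, edgeR called CMTM6 in 8CDm against WT cells (0.86, adjusted p = 6.1e-07) and between the WT groups (0.65, 0.00017). It also called JAK2 in 8CDm against WT cells (0.54, 0.00026) and PSMB5 in 6CD2m against WT cells (−0.56, 1.4e-05). Calls over all genes also rose in that fit, as given below. Of the list of interferon receptors and kinases, 0 of 10 tested genes were called in any comparison with edgeR on all 15 libraries. Of all genes 0.420% to 13.2% were called, so 0 of 10 is near that share and says little about this list. An unadjusted p under 0.05 was found for 3 to 7 of them in each, and the share of all genes at that level was not counted.

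The genes around CD274 were described to see whether its differences extended along chromosome 9. In 6CD2m against WT cells, the 15 other protein-coding genes tested that start within 1 Mb of CD274 had a median log2 fold change of 0.10, and in 8CDm against WT cells one of 0.19. PDCD1LG2, which encodes the other PD-1 ligand PD-L2 and starts 60 kb downstream, was at 0.48 (SE 0.16, adjusted p = 0.032) and at −0.00 (SE 0.16, adjusted p = 0.99). PLGRKT, which starts 93 kb upstream, was at 0.04 and −0.33, and JAK2, which starts 466 kb upstream, at −0.12 and 0.44. The neighbours called were PLPP6 (0.81, higher) and UHRF2 (−0.63, lower) in 6CD2m cells and SLC1A1 (2.24, higher) in 8CDm cells.

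PDCD1LG2 was at 4.71, 5.62 and 6.90 CPM in 6CD1m cells and at 11.9, 13.4 and 13.8 CPM in 6CD2m cells, with no overlap (log2 fold change −1.18, SE 0.17, adjusted p = 7.2e-05), and passed without any single library. In this comparison PLPP6 (−1.16), CDC37L1 (−0.93) and AK3 (−0.81), with starts at −788 to −741 kb, were also called lower and UHRF2 (0.65) higher, and the 15 neighbours had a median of −0.35.

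**Figure D4:**
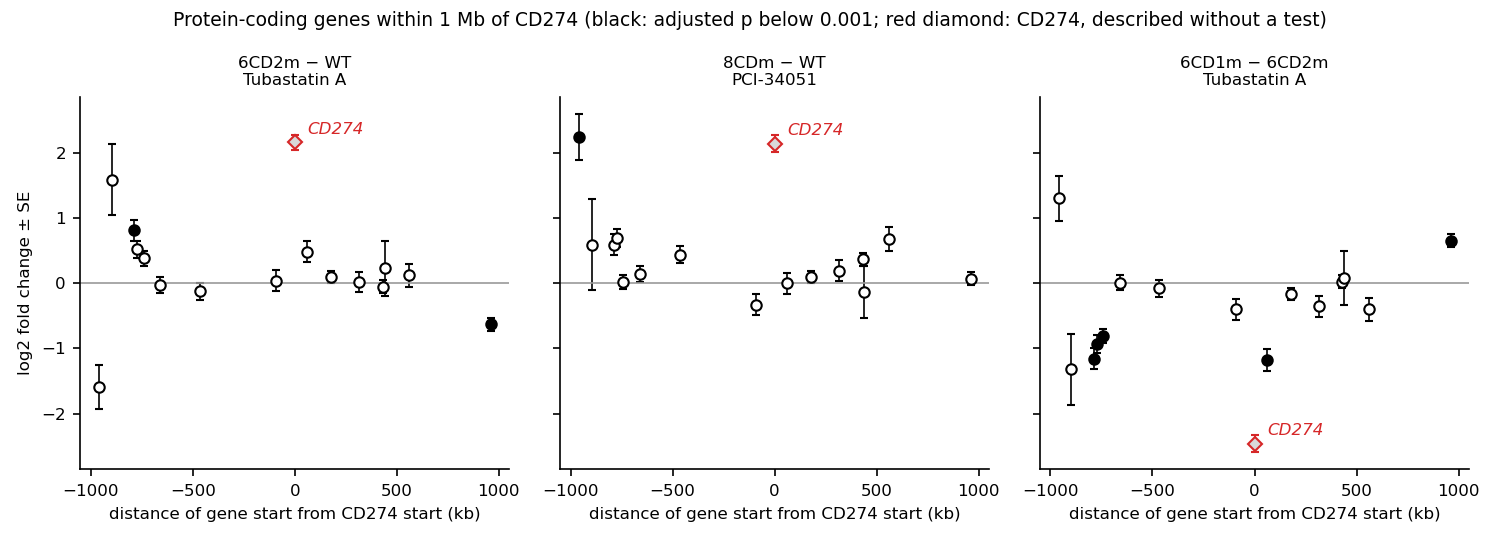
Log2 fold change (y axis, with SE bars) of tested protein-coding genes against the distance of their start from that of CD274 (x axis, kb) in 3 comparisons; filled black points had an adjusted p below 0.001 and the red diamond is CD274, given without a test. CD274 lies at 2.16, 2.14 and −2.46, farther from 0 than any neighbour between PLGRKT at −93 kb and RANBP6 at 561 kb. Outside that stretch SLC1A1 at −960 kb lies farther from 0 than CD274 in 8CDm against WT cells, at 2.24.

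Over the 15 libraries the class I genes ran together to unequal degrees. Among the 7 tested class I genes Pearson's r of log2 CPM (pseudocount 0.5 CPM) lay between 0.127 and 0.929, with a median of 0.677, and was highest for B2M and PSMB8. CD274 was most like TAP2 (r = 0.886) and least like HLA-E (0.0643). The genes outside the set whose levels followed each member most closely, of 14236 compared, were KBTBD8, SLAMF7 and NDUFB9 for HLA-B (r = 0.920 to 0.931), APEH, NPC1 and CSRP1 for HLA-E (0.922 to 0.929), STRAP, SLC39A9 and M6PR for B2M (0.986 to 0.988), and GRINA, TXNDC11 and FLNA for TAP1 (0.934 to 0.953). They were NOLC1, PPP2CB and MSN for TAP2 (0.963 to 0.976), ATP6V1B2, FAM49A and TSPAN3 for PSMB8 (0.972 to 0.982), ARHGAP42, RGL1 and MSRB3 for PSMB9 (0.897 to 0.935), and INHBE, ANKRD1 and SCN2A for CD274 (0.973 to 0.985). These libraries fall into 5 groups and share depth and base composition, so the values describe the 15 libraries and are not independent replicates.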

How the data were processed

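Libraries were made from rRNA-depleted total RNA and sequenced from both ends. The submitters' processing notes list Trimmomatic 0.39, Bowtie2 2.4.5, RSEM 1.3.3, DESeq2 1.38.2 and GRCh38. The strand setting and the annotation release are not given in the sources used here. The authors deposited expected counts, which are estimated reads per gene without normalization, for 60675 genes. Fractional numbers made up 21.8% of the nonzero values, which were rounded. Gene positions came from GENCODE 29, which matched 57055 genes, and promoter windows from RefSeq.

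Groups and replicate numbers came from the sample labels, and replicates are biological as the study describes them, so that p-values measure the spread between these samples. Counts were analysed with edgeR 4.0.16 and limma 3.58.1 in R 4.3.3, and with numpy 2.4.6, pandas 2.3.3, matplotlib 3.10.9 and scipy 1.17.1 in Python 3.11.15. The edgeR filter on low counts kept 19535 genes, libraries were scaled by TMM, and a model with 5 group means was fitted to all 15 libraries (common biological coefficient of variation 16.4%). Contrasts were tested by quasi-likelihood at a false discovery rate of 0.001, that of the study. CPM are relative to the scaled library sizes. Scripts were tested on simulated data.

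The members and lists were chosen with earlier results of these data known. Besides the members, the genes named were fixed pathway genes (some are not reported here), called genes of the 9 lists, up to 3 in each comparison with the largest change among those called, with average log2 CPM of at least 1 and no overlap, the 3 genes most like each member, and neighbours of CD274. Called list genes beyond the 3 and called neighbours were picked with their values in view.

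The alternatives were DESeq2 1.42.0, scaling by the upper quartile, scaling factors computed without mitochondrial or small structural RNAs, no filter, at least 10 counts in every library, a false discovery rate of 0.05, only the libraries compared, a block for the replicate number, GC offsets (99.2% of genes tested had a GC value) with and without that block, and leaving out each replicate. Leaving out the 3 libraries that stood apart was added after seeing the data. Same-numbered libraries deviated together, with r over 0.1 in all 3 pairs, only between the WT groups (r = 0.68, 0.357 and 0.307). Replicate 1 stood apart in both of these groups, so these r do not establish pairing by number. The block for the replicate number was fitted over all 15 libraries and is not a paired fit of the WT groups alone.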

Additional observations from a re-analysis of the deposited data

Results flagged for a closer look

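Of the pathway genes 4 passed the test of the interaction of 2 differences, that of 6CD2m from Tubastatin A-treated WT cells and that of 8CDm from PCI-34051-treated WT cells (edgeR, adjusted over all genes, 3 libraries per group). ULBP3 had an interaction of 2.20 (SE 0.36, adjusted p = 0.00044) on the log2 scale. It was at 5.96 ± 0.761 CPM in 6CD2m, 5.36 ± 1.03 in WT cells on Tubastatin A, 1.59 ± 0.408 in 8CDm and 6.55 ± 1.40 in WT cells on PCI-34051. RAET1E had one of 1.79 (SE 0.27, adjusted p = 0.00026), at 9.09 ± 1.03, 8.58 ± 1.40, 1.66 ± 0.202 and 5.46 ± 0.405 CPM in the same order. Both lie in the stretch of chromosome 6 beyond 60 Mb whose genes had a median of −0.61 in 8CDm against WT cells, and the part of that stretch in these values was not tested.

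MX1, an antiviral GTPase, had an interaction of 1.81 (SE 0.26, adjusted p = 0.00015), at 13.0 ± 1.06, 6.90 ± 0.913, 2.77 ± 0.578 and 5.17 ± 0.842 CPM in that order. It was higher in 6CD2m than in WT cells and lower in 8CDm than in WT cells by its means. STAT2 had one of 0.67 (SE 0.11, adjusted p = 0.00063), at 89.0 ± 1.61, 76.2 ± 2.07, 70.8 ± 2.07 and 96.2 ± 4.43 CPM. When 1 of the 12 libraries was left out the STAT2 interaction passed only without WT replicate 1 on PCI-34051, ULBP3 failed in 6 and RAET1E in 4 of the 12 fits, and MX1 passed in every one. With GC offsets the calls of MX1 (adjusted p = 0.0011), ULBP3 (0.0027) and STAT2 (0.0056) ended, and that of STAT2 also did with the replicate block (0.0031) or no filter on low counts (0.0026). With GC offsets and the replicate block RAET1E did not pass either (0.0012).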

How the results depend on the processing

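Of 992 values of members under the alternatives, with those of CD274 included, 917 kept their side of the threshold. Of the rest, 38 fell below it and 37 rose above it, and 0 called values changed sign, while 38 uncalled values did. Since CD274 was chosen on its values, this tally is a description only, and it was not made without CD274. For the 84 pathway genes, 1953 of 2180 values kept their side, 187 fell below, 40 rose above and 0 called values changed sign, while 71 uncalled values did. Upper-quartile scaling moved the median of all genes to 0.104 in 6CD1m against WT cells and to 0.13 in the interaction. The number of calls over all genes changed under the same alternatives, as given below for several of them. The cause of the changes in the counts was not tested.

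Counts of members here include CD274, which was chosen on these values. They were 1 (6CD1m against WT), 1 (6CD2m against WT), 1 (8CDm against WT), 2 (WT groups), 3 (6CD1m against 6CD2m), 2 (6CD2m against 8CDm) and 0 (interaction). In 6CD2m against WT and in 8CDm against WT cells the 1 member called was CD274, so these counts describe only the gene chosen. Over the 7 tested class I genes the counts were 1, 0, 0, 1, 2, 1 and 0 in the same order. In 6CD1m against WT cells the count was 2 with DESeq2, with no filter and without the 3 libraries that stood apart, 4 at a false discovery rate of 0.05, and 0 with only the libraries compared, the replicate block, GC offsets and GC offsets with the replicate block. Over all genes, 4 were higher and 5 lower of 17309 with only the libraries compared, and 26 and 50 of 19535 with the block. Without the 3 libraries these were 80 and 187 of 19878. In 6CD2m against WT cells it was 3 at 0.05 and 2 without the 3 libraries, and in 8CDm against WT cells 3 and 5. Between the WT groups it was 0 with only the libraries compared, 1 with the replicate block, GC offsets and both, and 4 without the 3 libraries. Over all genes, 1 was higher and 0 lower of 17263 with only the libraries compared, and 21 and 6 of 19535 with the block. Without the 3 libraries these were 1405 and 645 of 19878. In 6CD1m against 6CD2m cells it was 6 with DESeq2, 5 with upper-quartile scaling, 7 at 0.05 and without the 3 libraries, and 1 with GC offsets and the replicate block. Over all genes, 1956 were higher and 2315 lower of 19534 with DESeq2, and 918 and 926 of 19535 with GC offsets and the block. Without the 3 libraries these were 2083 and 2363 of 19878. In 6CD2m against 8CDm cells it was 1 with the replicate block, GC offsets and both. Leaving out single libraries gave 0 to 0, 1 to 1, 1 to 1, 1 to 2, 2 to 3, 1 to 1 and 0 to 0 members, in the order in which the comparisons were first given. For the 7 class I genes without CD274 it gave 0 to 0, 0 to 0, 0 to 0, 0 to 1, 1 to 2, 0 to 0 and 0 to 0.

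Of the pathway genes, 1, 10, 7, 0, 15 and 9 were called in the first 6 of these comparisons. In 6CD1m against WT cells the count was 0 with at least 10 counts in every library, only the libraries compared and the replicate block with or without GC offsets, 2 with GC offsets and without the 3 libraries, and 11 at 0.05. In 6CD2m against WT cells it was 17 with DESeq2, no filter and only the libraries compared, 31 at 0.05 and 24 without the 3 libraries. Over all genes, 1681 were higher and 1961 lower of 19534 with DESeq2, and 1244 and 1462 of 17868 with only the libraries compared. At 0.05 these were 2878 and 3533 of 19535, and without the 3 libraries 2109 and 2385 of 19878. In 8CDm against WT cells it was 17 with DESeq2, 11 with no filter, 30 at 0.05, 2 with only the libraries compared, 3 with the replicate block, 4 with GC offsets and the replicate block, and 26 without the 3 libraries. Over all genes, 1889 were higher and 1960 lower of 19155 with DESeq2, and 353 and 476 of 17683 with only the libraries compared. With the block these were 581 and 829 of 19535, and without the 3 libraries 3442 and 2686 of 19878. Between the WT groups it was 3 with DESeq2 and 7 both at 0.05 and without the 3 libraries. In 6CD1m against 6CD2m cells it was 35 at 0.05 and 6 with only the libraries compared, and in 6CD2m against 8CDm cells 17 with DESeq2, 27 at 0.05 and 31 with only the libraries compared. With only the libraries compared, 420 of all 17925 genes were higher and 668 lower in 6CD1m against 6CD2m cells. In 6CD2m against 8CDm cells these were 2288 and 1891 of 18012. Leaving out single libraries gave 0 to 0, 5 to 8, 3 to 12, 0 to 0, 9 to 17 and 6 to 7. The fit with the replicate block changed no call of a member other than those given for HLA-E and HLA-B. Genes with few counts, HLA-C among them, could not be compared at this depth.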
